A study of Rattus norvegicus with 40 samples.

Results

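The mRNAs of the nuclear-encoded proteins of oxidative phosphorylation were followed in rat liver polysomes and in total liver RNA, with and without the mTOR inhibitor rapamycin. Members were genes with an array row of exactly 1 gene symbol beginning with Ndufa, Ndufb, Ndufc, Ndufs or Ndufv and a digit, with Uqcr, with Cox4 to Cox8 or with Atp5, and the genes Sdha to Sdhd. Where a gene had several rows, the row with the highest mean over all arrays was kept. The rule found 86 rows of 76 genes, among 14497 genes on the array with such a row. Complex I supplied 32 members, complex II 4, complex III 7, complex IV 17 and complex V, the ATP synthase, 16. A filter on dim rows left 73 members for testing, among 10860 tested rows. The 3 members below it were Cox8b and Cox8c, isoforms of a small cytochrome oxidase subunit, and the pseudogene locus Cox6c-ps1. Ndufs6-ps1 is a second pseudogene locus, and its probes may also bind the mRNA of the parent gene. Cox6b1, Cox7a1 and Ndufa4l2 were not analysed here.

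Oxidative phosphorylation passes electrons from NADH and succinate through complexes I to IV of the inner mitochondrial membrane and uses the resulting proton gradient to make ATP at complex V. Most subunits are encoded in the nucleus, translated on cytosolic ribosomes and imported, and hepatocytes are rich in mitochondria. mTOR complex 1, the kinase complex that rapamycin inhibits, promotes translation, and in cultured mammalian cells mRNAs of mitochondrial proteins are among those whose translation it controls.

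The livers came from Sprague Dawley rats in 3 models of liver growth, and polysome RNA and total RNA of each arm were measured on 40 Affymetrix whole-transcript arrays in all. The arms hold 20 livers if polysome and total samples of the same number come from the same liver, as was assumed here from the shared numbers; the labels do not say so. Fetuses were injected with 50 µg of rapamycin (n = 4) or with its vehicle DMSO (n = 4) on gestation day 19 and harvested on day 20. Adults of 125 to 150 g were injected with 250 µg rapamycin per 100 g body weight (n = 3) or DMSO (n = 3) 1 h before a partial hepatectomy and killed 24 h after surgery, when the remaining liver regrows. Other adults were fasted for 48 h, injected in the same way (n = 3 and n = 3) 1 h before food was returned, and killed after 3 h of refeeding. Polysome RNA, collected from sucrose gradients and labelled as coming from pooled polysome preparations, was extracted with acid phenol, whereas total RNA was isolated in guanidine thiocyanate over caesium chloride, so fraction and extraction method cannot be told apart. No adult arm with neither surgery nor fasting was analysed here, so the model, age, surgery and feeding cannot be told apart either.

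Promoter sequences are given for 5 members on which the results below turn: the 3 genes of the proton-carrying ring subunit c of the ATP synthase, Atp5mg, which had the largest polysome-to-total difference, and Atp5if1, which had the clearest fetal difference. They are RefSeq sequences of rat build GRCr8, the 250 bases before the start of each gene, 5′ to 3′ on the gene's own strand, and capitals mark a motif match. All 5 genes lie on the minus strand, Atp5mc1 at chr10:81523346-81523595, Atp5mc2 at chr7:135678219-135678468, Atp5mc3 at chr3:79220665-79220914, Atp5mg at chr8:54130408-54130657 and Atp5if1 at chr5:150026678-150026927.
Atp5mc1: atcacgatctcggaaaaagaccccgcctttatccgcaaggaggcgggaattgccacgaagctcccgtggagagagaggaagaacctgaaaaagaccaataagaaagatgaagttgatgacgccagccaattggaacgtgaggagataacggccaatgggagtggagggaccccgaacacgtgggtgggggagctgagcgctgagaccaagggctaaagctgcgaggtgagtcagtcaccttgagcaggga
Atp5mc2: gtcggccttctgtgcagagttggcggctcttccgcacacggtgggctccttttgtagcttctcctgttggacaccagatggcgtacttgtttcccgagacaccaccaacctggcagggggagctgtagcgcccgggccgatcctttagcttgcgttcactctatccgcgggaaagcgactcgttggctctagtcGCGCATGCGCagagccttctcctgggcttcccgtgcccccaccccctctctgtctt
Atp5mc3: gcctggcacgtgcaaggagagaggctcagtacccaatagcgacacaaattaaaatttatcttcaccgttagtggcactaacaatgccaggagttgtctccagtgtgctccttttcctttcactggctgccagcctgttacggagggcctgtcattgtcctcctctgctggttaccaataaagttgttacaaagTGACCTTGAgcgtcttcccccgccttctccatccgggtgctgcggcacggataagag
Atp5mg: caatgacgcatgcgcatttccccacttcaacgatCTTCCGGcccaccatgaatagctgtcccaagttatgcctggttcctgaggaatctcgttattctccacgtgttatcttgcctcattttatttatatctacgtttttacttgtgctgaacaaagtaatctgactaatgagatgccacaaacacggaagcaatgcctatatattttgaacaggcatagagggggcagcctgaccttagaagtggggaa
Atp5if1: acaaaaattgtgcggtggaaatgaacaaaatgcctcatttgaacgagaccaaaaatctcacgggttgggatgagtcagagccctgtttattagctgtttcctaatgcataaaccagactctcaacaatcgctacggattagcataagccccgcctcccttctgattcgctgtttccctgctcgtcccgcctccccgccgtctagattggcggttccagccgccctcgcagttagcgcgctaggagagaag
The capitals in Atp5mc2 match the motif of NRF1, those in Atp5mc3 the motif of ERR alpha on the opposite strand, and those in Atp5mg the motif of GABP on the opposite strand, while Atp5mc1 and Atp5if1 held none of the letters searched.

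Both strands of the 250-base windows of the 66 members with an entry were searched for the NRF1 motif (a repeat of GCGC with A and any base between), CCGGAAG (GABP, also called NRF2), AAGATGGC (YY1) and TCAAGGTCA (ERR alpha), factors known to bind promoters of mitochondrial genes. The searched words may overlap one another where their letters allow. NRF1 letters were found in 10 members (15.2%), against 5.44% of 18999 promoters of protein-coding genes. GABP letters were found in 19 members (28.8%), against 9.52% of those promoters. Any of NRF1, GABP or YY1 was found in 42.4% of the members, 30.2% of 63 mitochondrial ribosomal protein promoters and 15.3% of all. Median GC content was 55.8% in the members and 54.8% in all, and these shares are descriptions with no test.

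Values are log2 of the deposited array intensities, which the authors had scaled by RMA so that all arrays share nearly the same distribution. A shift shared by every mRNA of a fraction is therefore invisible on this scale, and each difference below is relative to the other mRNAs on the arrays. In bulk liver, fewer cells of a type and less RNA per cell cannot be told apart. The median of 10 hepatocyte markers such as Alb and Ttr lay between 13.65 and 13.95 on every array, and only 3 of 9 skeletal muscle markers passed the filter. Fetal livers also carried blood-forming cells: the summed intensity of 9 erythroid markers was 48607 to 80095 in fetal livers, against 6156 to 15939 in both adult models.

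Some total RNA arrays stood apart in the member values. The median log2 intensity of the members in total RNA of DMSO-treated fasted/refed livers was 11.27, 11.74 and 11.10 in livers 1, 2 and 3, whereas the rapamycin-treated livers of the same model had 11.66, 11.87 and 11.73. Livers 1 and 3 were also low in the median of 68 mitochondrial ribosomal protein mRNAs, at 9.40 and 9.43 against 10.15 in liver 2. The hepatocyte median was 13.94, 13.92 and 13.78, so liver 1 was not low in it, while liver 3 was the lowest of the group. Fetal total RNA of rapamycin liver 1 was low as well, at 11.27 against 11.73 to 11.87 in the other 3 livers of its group. Counts and medians over fasted/refed DMSO total RNA, and the members described most fully, are therefore given with and without the total arrays of livers 1 and 3. Without them the comparison holds 1 DMSO total array, which is assumed to vary like the other groups. The cause of the low values was not tested.

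The median member was higher on polysome arrays than on total RNA arrays in every model. The median member in polysomes lay between 11.96 and 12.25 on all 20 polysome arrays, above the 11.10 to 11.89 of all 20 total arrays. Within polysomes the arrays of all 6 groups overlapped, while the total arrays spread more widely. The highest group mean belonged to a polysome group in most members, hepatectomy DMSO polysomes in 25 and hepatectomy rapamycin polysomes in 11 of the 73 tested. Total RNA of DMSO-treated fasted/refed livers was the lowest group in 45 members.

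**Figure D1:**
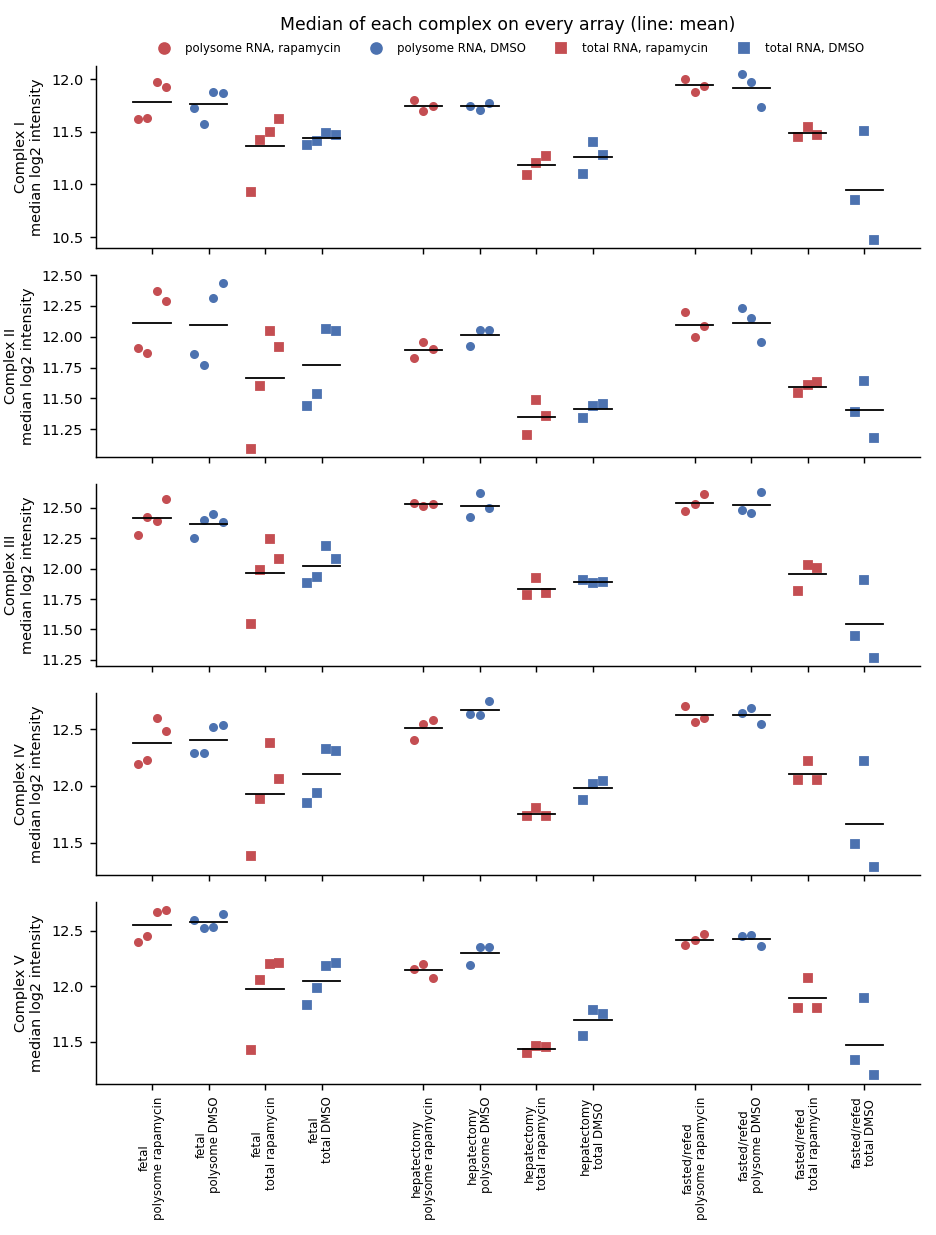
Median log2 intensity of the tested members of each respiratory complex on every array (points), with lines at the group means, for fetal, hepatectomy and fasted/refed livers, polysome left of total and rapamycin left of DMSO. Polysome arrays sit above total arrays in all 5 complexes in both adult models, fetal arrays of the fractions overlap in complexes I, II and IV, and 2 of the 3 DMSO total arrays of fasted/refed livers lie low in all 5 complexes.

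Polysome and total RNA were compared among DMSO-treated livers, which asks which mRNAs were enriched in the translated pool. In fetal livers 26 of 73 members were higher in polysomes and 0 lower, against 8.10% of all rows higher and 6.38% lower (limma, Benjamini-Hochberg adjusted p threshold 0.05). In hepatectomy livers 57 members were higher and 3 lower, against 28.8% and 15.0% of all rows. In fasted/refed livers 60 were higher and 0 lower, against 19.5% and 5.14%. The median log2 difference of the members was 0.34, 0.65 and 0.95 in the 3 models, where that of all tested rows was 0.04, 0.09 and 0.10. The same 26 members were called in all 3 models, and 60 in at least 1. The fasted/refed value rests on the low total arrays: without DMSO livers 1 and 3, 25 members were called and the median was 0.52, against 2.27% of all rows higher and 0.424% lower, and all 60 kept their sign. The 60 include Cox4i2, which passed the filter only through its fetal arrays and lay below the filter level in both fractions of fasted/refed livers; it was not among the 25. In rapamycin-treated livers, compared in the same way, 30 members were higher in polysomes and 0 lower in fetal livers. The low total array of fetal rapamycin liver 1 was kept in all comparisons within rapamycin-treated livers. With rapamycin, hepatectomy livers had 59 higher and 3 lower, and fasted/refed livers 20 higher and 0 lower. The medians were 0.40, 0.72 and 0.48. Of the called members, 25, 58 and 20 were called in the same direction in DMSO livers. For comparisons within rapamycin-treated livers, here and below, no share of all rows is given, so their counts are descriptions.

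**Figure D2:**
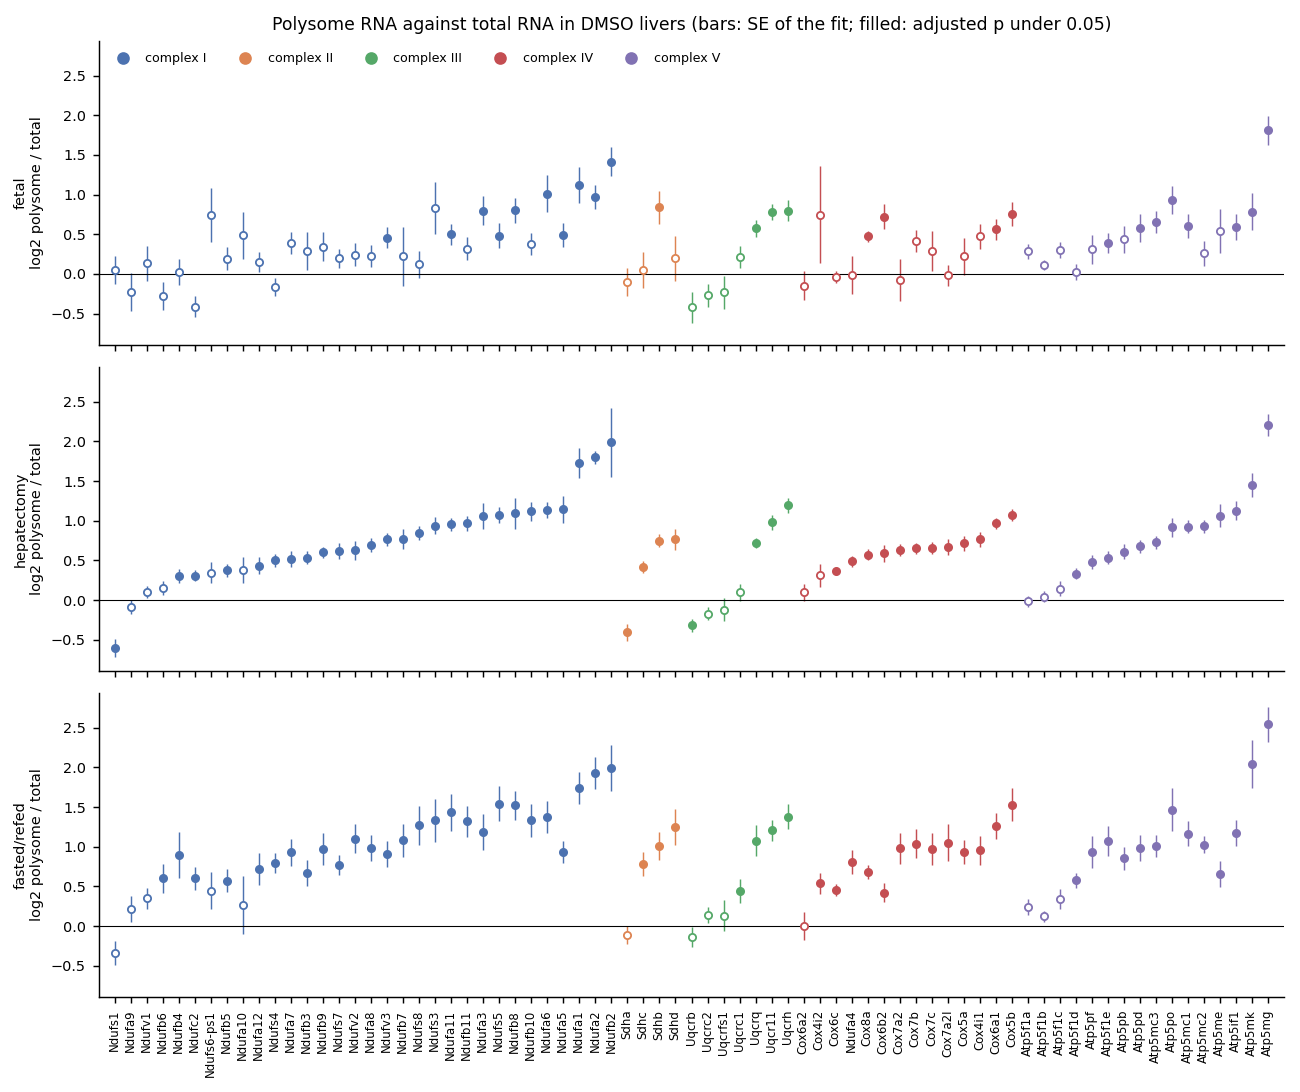
Log2 difference of polysome minus total RNA in DMSO-treated livers for each tested member, by complex, in fetal, hepatectomy and fasted/refed livers. Filled points passed an adjusted p threshold of 0.05 and bars are standard errors; most points lie above 0, with Atp5mg highest in each model and Ndufs1, Sdha and Uqcrb below 0 in hepatectomy livers.

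The ATP synthase held the member with the largest difference. Atp5mg, subunit g of the membrane part, measured 11.90, 12.15, 11.50 and 11.41 in fetal DMSO polysomes, against 10.07, 9.89, 9.65 and 10.12 in fetal DMSO total RNA. In hepatectomy livers it measured 11.82, 12.23 and 12.32 in polysomes, against 9.83, 9.87 and 10.06 in total RNA. Polysome and total arrays did not overlap in either model, nor in fasted/refed livers, where it had at least 11.81 in polysomes against 9.39, 9.82 and 8.83 in total RNA. The log2 difference was 1.81 (SE 0.19, limma adjusted p = 6.01e-05), 2.20 (SE 0.14, adjusted p = 2.02e-06) and 2.54 (SE 0.22, adjusted p = 0.000211) in the 3 models. In rapamycin-treated livers it was 1.88, 2.12 and 1.78, and in fasted/refed livers without DMSO livers 1 and 3 it was 2.07. Atp5mk, another small membrane subunit, differed by 0.78, 1.45 and 2.05 (adjusted p = 0.0332, 2.55e-05 and 0.00143), and by 1.32 in fasted/refed livers without those 2 (adjusted p = 0.049).

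Most subunits of the catalytic head of the ATP synthase were not called. Atp5f1b, the beta subunit that makes ATP, had 13.50, 13.44, 13.41 and 13.55 in fetal polysomes, against 13.40, 13.41, 13.33 and 13.29 in fetal total RNA. Its log2 differences were 0.12, 0.04 and 0.13 in fetal, hepatectomy and fasted/refed livers, with standard errors of 0.06 to 0.07, and none passed the test. Atp5f1a and Atp5f1c, the alpha and gamma subunits, were not called in any model either, at 0.28, -0.02 and 0.24 and at 0.30, 0.14 and 0.34. Atp5f1e, the small epsilon subunit of the same head, was higher in all 3 models, by 0.39, 0.53 and 1.07. Over the 5 head subunits the medians were 0.28, 0.14 and 0.34 with 1, 2 and 2 called, while the 4 peripheral stalk subunits had 0.51, 0.64 and 0.96 with 2, 4 and 4 called. Leaving out the 2 low total arrays gave fasted/refed medians of 0.13 in the head with 1 called and 0.55 in the stalk with 1 called, and Atp5f1e was at 0.54, not called. No test of head against stalk was made.

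The 3 genes of subunit c encode the same mature protein behind different targeting sequences. Atp5mc1 differed by 0.60, 0.93 and 1.17 (SE 0.15, 0.08 and 0.16), Atp5mc2 by 0.26, 0.93 and 1.03, and Atp5mc3 by 0.65, 0.73 and 1.01. All were called in every model except Atp5mc2 in fetal livers, where the limma adjusted p was 0.288. Atp5if1, the inhibitor that binds the ATP synthase when the proton gradient fails, was higher in polysomes by 0.59, 1.13 and 1.17. The fasted/refed differences of Atp5mc1, Atp5mc2, Atp5mc3 and Atp5if1 were 0.76, 0.85, 0.61 and 0.79 without DMSO livers 1 and 3, all called.

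In complex I, which takes electrons from NADH, most accessory subunits were higher in polysomes. Ndufa2, an accessory subunit with a thioredoxin-like fold, had 9.57, 9.53, 9.52 and 9.37 in fetal polysomes, against 8.55, 8.39, 8.64 and 8.52 in fetal total RNA. Hepatectomy livers had 10.14, 10.29 and 10.29 in polysomes, against 8.38, 8.41 and 8.53 in total RNA. Fasted/refed livers had 9.92, 10.02 and 9.83 in polysomes, against 8.26, 8.27 and 7.46 in total RNA. The fractions were apart in each model, by 0.97 (SE 0.15, limma adjusted p = 0.00102), 1.80 (SE 0.08, adjusted p = 5.72e-07) and 1.93 (SE 0.20, adjusted p = 0.000356). Ndufb2 and Ndufa1, further accessory subunits, differed by 1.41, 1.99 and 1.99 and by 1.12, 1.73 and 1.74. Without fasted/refed DMSO livers 1 and 3, the fasted/refed differences of Ndufa2, Ndufa1 and Ndufb2 were 1.66, 1.29 and 1.20. Of the 25 accessory members, 10, 22 and 23 were higher in polysomes, and their medians were 0.37, 0.76 and 0.97. Without those livers 10 accessory members were called in fasted/refed livers, at a median of 0.64.

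Ndufs1, the large iron-sulfur subunit at the head of the electron path, ran the other way in regenerating liver. It measured 10.76, 10.78 and 10.44 in hepatectomy polysomes, against 11.12, 11.40 and 11.28 in hepatectomy total RNA, with no overlap. The log2 difference was -0.60 (SE 0.12, limma adjusted p = 0.00135) with DMSO and -0.43 (adjusted p = 0.0108) with rapamycin. In fetal and fasted/refed livers its differences were 0.05 and -0.34, neither called. Ndufv1, which binds NADH, was not called in any model, at 0.13, 0.10 and 0.35. Other core subunits were higher in polysomes of both adult models, for example Ndufs8, an iron-sulfur subunit, by 0.85 and 1.27 in hepatectomy and fasted/refed livers. With the 2 low total arrays left out, none of the 6 core members was called in fasted/refed livers (limma), at a median of 0.54, with Ndufs8 at 0.62 (adjusted p = 0.103).

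In complex II, succinate dehydrogenase, 1 catalytic subunit was higher in polysomes in all models and the other was not. Sdhb, the iron-sulfur subunit, had 12.21, 11.85, 12.26 and 12.55 in fetal polysomes, against 11.08, 11.09, 11.66 and 11.68 in fetal total RNA. It was higher in polysomes by 0.84, 0.75 and 1.00 in the 3 models (limma adjusted p = 0.0147, 4.73e-05 and 0.00292), with no overlap of the fetal arrays. Sdha, the flavoprotein that oxidises succinate, had 11.24, 10.88 and 10.89 in hepatectomy polysomes, against 11.47, 11.30 and 11.47 in hepatectomy total RNA. All 3 polysome values were below the total values, a difference of -0.41 (SE 0.10, limma adjusted p = 0.00771), and it was -0.33 (adjusted p = 0.0234) in rapamycin-treated livers. Its differences of -0.10 and -0.11 in fetal and fasted/refed livers were not called. The membrane anchors Sdhc and Sdhd were higher in both adult models, by 0.41 and 0.78 and by 0.77 and 1.25, and were not called in fetal livers. No complex II member was called in fasted/refed livers without DMSO livers 1 and 3 (limma), where Sdhb was at 0.57 (adjusted p = 0.0836), Sdhc at 0.41 and Sdhd at 0.64.

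In complex III, which passes electrons to cytochrome c, 3 of the 4 small subunits gave most of the calls. Uqcrh, the hinge protein, was higher by 0.80, 1.19 and 1.38 (limma adjusted p = 0.00162, 8.11e-06 and 0.000533), and Uqcr11 and Uqcrq, 2 further small subunits, were called in all 3 models. The core protein Uqcrc2 was at -0.27, -0.17 and 0.14, and the Rieske iron-sulfur protein Uqcrfs1 at -0.23, -0.12 and 0.13, with no call. Uqcrb, a small subunit near the ubiquinone site, had 12.42, 12.62 and 12.50 in hepatectomy polysomes, against 12.70, 12.93 and 12.87 in hepatectomy total RNA. These values were apart, by -0.32 (SE 0.08, limma adjusted p = 0.00744), but in rapamycin-treated hepatectomy livers the difference was -0.18 (adjusted p = 0.0852). Its 2 array rows followed each other less closely than those of most members with several rows, with a Pearson correlation of 0.76 over the 12 group means, given as a description. Median differences in complex III were 0.21, 0.10 and 0.45, the lowest of the 5 complexes in both adult models. The fasted/refed median was 0.07 without DMSO livers 1 and 3, with Uqcrh (0.97) and Uqcr11 (0.90) called and Uqcrq at 0.52, not called.

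In complex IV, cytochrome c oxidase, all 11 liver subunits were called in each adult model, and 3 in fetal livers. The 11 include Cox7a2l, which is a factor that helps join complexes III and IV. Cox5b, which binds zinc on the matrix side, had 11.51, 11.54, 11.40 and 11.45 in fetal polysomes, against 10.80, 10.56, 10.83 and 10.69 in fetal total RNA. The gap was 0.75 (limma adjusted p = 0.0047) there, 1.07 (adjusted p = 3.93e-06) in hepatectomy livers and 1.53 (adjusted p = 0.00107) in fasted/refed livers, with no overlap in fetal livers. Cox6a1 and Cox8a, the widely expressed isoforms of their subunits, were called in all 3 models, by 0.56, 0.97 and 1.27 and by 0.47, 0.57 and 0.69. Cox4i1, the common form of subunit IV, was called in both adult models at 0.76 and 0.95 and not in fetal livers at 0.47 (adjusted p = 0.059). Cox6a2, the heart and muscle isoform, was at -0.15, 0.10 and 0.00, with no call. In fasted/refed livers without DMSO livers 1 and 3, 5 of the 11 liver subunits were called, at a median of 0.44, among them Cox5b (0.98), Cox6a1 (0.91) and Cox8a (0.51), while Cox4i1 was at 0.44, not called.

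Lists of related genes give the setting for these counts. Mitochondrial ribosomal protein mRNAs, which serve translation inside mitochondria, were higher in polysomes in 27, 62 and 64 of 68 cases, with medians of 0.42, 0.77 and 1.00. Cytosolic ribosomal protein mRNAs had 8, 51 and 56 of 73 higher and 9, 2 and 0 lower, with medians of 0.08, 0.40 and 0.78. Of 31 assembly factors of the complexes, 6, 21 and 20 were higher, among them Coa3 (1.67 in fasted/refed livers), while Lrpprc, which stabilises mitochondrial mRNAs, was lower in both adult models (-0.88 and -0.55). The 10 citric acid cycle mRNAs had medians of -0.14, -0.08 and 0.17 with 0, 1 and 3 higher, and Suclg1, a succinyl-CoA ligase subunit, was higher by 0.91 and 1.16 in the adult models. Mitochondrial import genes were higher in 3, 8 and 9 of 11 cases, led by Timm13 of the intermembrane space (1.73, 1.61 and 1.70). Tfam, which packages and transcribes mitochondrial DNA, was higher by 0.69, 0.88 and 1.03. Without fasted/refed DMSO livers 1 and 3, the fasted/refed counts were 20 of 68 mitochondrial ribosomal, 9 of 73 cytosolic ribosomal, 4 of 31 assembly, 0 of 10 citric acid cycle and 2 of 11 import mRNAs higher and none lower, with medians of 0.62, 0.46, 0.46, -0.02 and 0.38. Coa3 (0.84) and Timm13 (1.22) were still called there, and Suclg1 (0.75), Tfam (0.94) and Lrpprc (-0.27) were not. Hepatocyte markers had medians of -0.05, -0.15 and -0.15, and stellate cell markers -0.54, -0.82 and -0.66, so markers of another liver cell type moved with the fraction; their part in the result was not tested.

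The order of the polysome-to-total differences was fetal below hepatectomy below fasted/refed in 57 of 73 members. It was so in 5 members without fasted/refed DMSO livers 1 and 3 and in 1 in rapamycin-treated livers, so the order of the adult models rests on those 2 arrays. Fetal lay below hepatectomy in 60 members with DMSO and in 54 with rapamycin. Among all rows with DMSO, the difference was higher in fetal than in hepatectomy livers in 41.2%. It was higher in hepatectomy than in fasted/refed livers in 40.5%. No share of all rows is given for the full order, so these counts are descriptions. The difference between models in that loading was tested on all 40 arrays. Against fasted/refed livers, 24 members had lower loading in fetal livers and 0 higher, against 8.38% of all rows lower and 1.92% higher, and the median was -0.56 where that of all rows was -0.10. With the liver number as a block, 45 members were called. Without fasted/refed DMSO livers 1 and 3 no member was called (limma), the median was -0.15 and all 24 kept their sign. With a fit on the groups compared alone, 1 member was called, and in rapamycin-treated livers 1 was called, Ndufs4, at a median of 0.00. The fetal to fasted/refed calls rest on the 2 low total arrays.

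Against hepatectomy livers, 5 members had lower loading in fetal livers and 0 higher, against 1.64% of all rows lower and 1.19% higher, with a median of -0.29. They were Ndufa2 at -0.83 (SE 0.22, limma adjusted p = 0.0313), Ndufc2 at -0.72 (SE 0.18, 0.0269), Atp5mc2 at -0.67 (SE 0.19, 0.0459), Ndufs4 at -0.67 (SE 0.16, 0.0177) and Cox6c at -0.40 (SE 0.09, 0.0179). Ndufs4, an accessory subunit needed for complex I assembly, shows the pattern: fetal livers had 12.52, 13.15, 12.90 and 12.72 in polysomes, against 13.06, 12.99, 12.95 and 12.94 in total RNA, with overlap. Hepatectomy livers had 13.06, 13.15 and 13.38 in polysomes, against 12.64, 12.71 and 12.74 in total RNA, with every polysome value above every total value. Ndufc2, a membrane-arm accessory subunit, had 12.10, 12.39, 12.68 and 12.48 in fetal polysomes, against 12.72, 12.75, 12.91 and 12.91 in fetal total RNA. In hepatectomy livers it had 13.04, 13.13 and 13.03 in polysomes, against 12.66, 12.84 and 12.79 in total RNA. Its fractions were apart in both models, polysomes below total RNA in fetal livers and above it in hepatectomy livers. With the liver number as a block 20 members were called, 1 higher and 19 lower. Under cyclic loess scaling the split was 2 higher and 3 lower, and leaving out 1 array gave 1 to 5 calls. In rapamycin-treated livers 7 members were called, all lower, 4 of them the same as in DMSO livers: Ndufa2 (-0.98), Ndufc2 (-0.78), Ndufs4 (-0.93) and Cox6c (-0.41). Between hepatectomy and fasted/refed livers limma called no member and 0% of all rows, and 1 member had an unadjusted p below the 0.05 threshold, against 2.51% of all rows. The median of the members was -0.28 there, 0.13 without fasted/refed DMSO livers 1 and 3, and 0.21 in rapamycin-treated livers.

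The level of the mRNAs in total RNA was compared between models among DMSO-treated livers. Fetal livers had 5 members higher and 2 lower than hepatectomy livers, against 19.9% and 17.0% of all rows; Cox4i2, which passed the filter only through its fetal arrays, is among the 5. Under cyclic loess scaling the split was 15 higher and 2 lower, and with arrays centred on their medians 3 and 3. In rapamycin-treated livers 14 were higher and 2 lower, and 6 of the 7 DMSO calls recurred.

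Atp5if1 stood highest among the fetal differences by its error. It measured 12.63, 12.59, 12.18 and 12.35 in fetal DMSO total RNA, against 10.74, 10.94 and 11.04 in hepatectomy livers and 10.34, 10.91 and 10.32 in fasted/refed livers. Every fetal value was above every adult value, in total RNA and also in polysomes, where fetal DMSO livers had 13.32, 13.25, 12.83 and 12.72 and adult DMSO livers 11.65 to 12.25. In total RNA the difference was 1.53 against hepatectomy livers (SE 0.16, limma adjusted p = 1.75e-09, 2.89-fold) and 1.91 against fasted/refed livers (SE 0.16, adjusted p = 7.56e-12). It was 1.53 against fasted/refed livers without DMSO livers 1 and 3. In rapamycin-treated livers it was 1.86 against hepatectomy livers.

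Cox4i2 and Cox6b2, tissue isoforms of cytochrome oxidase subunits, also had higher values in fetal DMSO total RNA. Cox4i2, the isoform of subunit IV best known from lung, had 7.01, 6.97, 8.67 and 8.54 in fetal DMSO total RNA, against 5.80, 5.70 and 5.70 in hepatectomy livers and 5.43, 6.0 and 5.81 in fasted/refed livers. The fetal livers ranged widely, yet none overlapped the adults, whose means lay below the filter level of 6.7. It passed the filter through the fetal arrays that made it high, so its values are a description with no test. Cox6b2, best known from testis, had 7.53, 7.30, 7.61 and 7.47 in fetal DMSO total RNA, against 6.82, 6.96 and 6.92 in hepatectomy livers and 6.71, 7.0 and 6.88 in fasted/refed livers. These were apart by 0.58 (SE 0.14, limma adjusted p = 0.00102) and 0.62 (SE 0.14, adjusted p = 0.0004). Without fasted/refed DMSO livers 1 and 3 the difference from fasted/refed livers was 0.48 (SE 0.20, adjusted p = 0.0742), not called. Cox4i1 in the same livers had 11.84, 11.78, 12.18 and 12.26 in fetal livers, against 11.70, 11.69 and 11.73 in hepatectomy livers, and was not called. Against hepatectomy livers Atp5if1 and Cox6b2 passed the threshold in all 7 fits that left out 1 of the arrays compared. All 9 erythroid markers and all 7 tested granulocyte markers were also higher in fetal total RNA, with medians of 4.21 and 4.68 against hepatectomy livers, and the part of those cells was not tested.

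**Figure D3:**
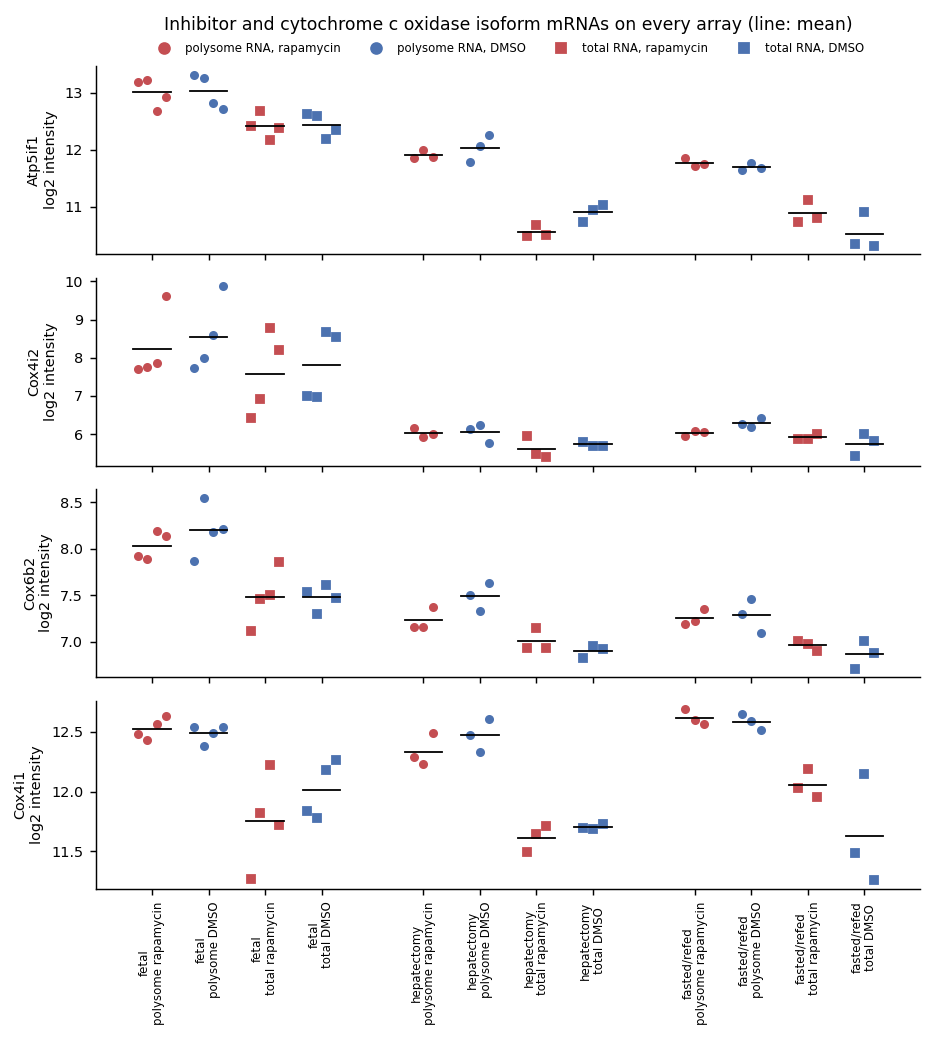
Log2 intensity of Atp5if1, Cox4i2, Cox6b2 and Cox4i1 on every array (points), with lines at the group means, polysome left of total and rapamycin left of DMSO within each model. Fetal arrays lie above both adult models in total RNA for Atp5if1 and Cox4i2, fetal DMSO arrays do so for Cox6b2, whose fetal total rapamycin array at 7.12 overlaps the adults, and 1 fetal polysome rapamycin array of Cox4i2 stands at 9.63.

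The remaining fetal to hepatectomy calls were smaller, and each was lost in at least 1 fit that left out 1 array. Atp5pb, a peripheral stalk subunit, had 11.82, 12.03, 12.35 and 12.41 in fetal total RNA, against 11.53, 11.77 and 11.76 in hepatectomy livers, a difference of 0.46 (SE 0.15, limma adjusted p = 0.0176) that passed in 4 of 7 such fits. Ndufs4 was higher by 0.29 (adjusted p = 0.0358) and passed in 2 of 7. Ndufa7, a small accessory subunit of complex I, had 10.44, 10.44, 10.80 and 10.74 in fetal total RNA, against 10.97, 10.99 and 11.24 in hepatectomy livers, and was lower by 0.46 on the log2 scale (log2 difference -0.46, adjusted p = 0.00827), passing in 6 of 7. Ndufs5, another accessory subunit, was at -0.43 (adjusted p = 0.0412) and passed in 1 of 7. All 4 pairs of groups were apart.

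Against fasted/refed livers more members were called, 42 higher and 0 lower in fetal livers, where 28.1% and 19% of all rows were called. Hepatectomy livers had 16 higher and 0 lower, against 12.4% and 5.03%, and 12 members were higher in both; Cox4i2 is among the 42. The largest after Cox4i2, described above, and Atp5if1 in fetal livers were Sdhd (0.86), Ndufb7 (0.86), Atp5po (0.84) and Cox7a2 (0.83). In hepatectomy livers they were Atp5mk (0.89), Ndufa11 (0.77), Ndufb4 (0.76) and Atp5po (0.70). Both sets share the same 3 DMSO fasted/refed total arrays. Without DMSO livers 1 and 3 the medians were 0.04 in fetal and -0.10 in hepatectomy livers, in place of 0.44 and 0.30. Of the 42 and 16 called members, 35 and 12 kept their sign. Most of the shift against fasted/refed livers therefore rests on the 2 low total arrays. In fetal livers Atp5if1 was then at 1.53, Ndufs4 at 0.46 and Ndufv3 at -0.44. In rapamycin-treated livers the medians were -0.06 and -0.23. The fetal comparison gave 4 higher and 7 lower there, and the hepatectomy comparison 0 higher and 2 lower, Atp5pd (-0.58) and Atp5f1c (-0.42). No share of all rows is given for these counts, which are descriptions. The fetal to fasted/refed medians were 0.40, 0.41, 0.40, 0.52 and 0.51 for complexes I to V with DMSO. Without DMSO livers 1 and 3 they were -0.11, 0.07, 0.09, 0.08 and 0.09.

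Rapamycin was compared with DMSO within each model and fraction. In hepatectomy polysomes 1 member was lower, against 4.10% of all rows lower and 2.26% higher, and in hepatectomy total RNA 2 were lower, against 3.54% lower and 1.47% higher. The member medians were -0.08 and -0.12, with 53 and 62 of 73 members below 0, and 11 and 15 at an unadjusted p below the threshold, against 25.5% and 23.6% of all rows. The called and unadjusted shares lie under the background and are no result about the members as a group. Of all rows 47.6% and 47.2% were above 0, and the direction of the members was not tested. The complex medians ran from -0.14 to -0.03 in polysomes and from -0.20 to -0.08 in total RNA, lowest in complex V in both.

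Atp5mc1, 1 of the 3 subunit c genes shown above, was the member called in both fractions. In hepatectomy polysomes it measured 12.56, 12.45 and 12.56 with rapamycin, against 12.87, 12.83 and 12.84 with DMSO. In hepatectomy total RNA it measured 11.41, 11.62 and 11.60 with rapamycin, against 11.86, 12.02 and 11.88 with DMSO. The treatments did not overlap in either fraction, with differences of -0.32 (SE 0.08, limma adjusted p = 0.0368) and -0.38 (SE 0.08, adjusted p = 0.0258). The calls depended on single arrays: leaving out 1 array kept 1 of 6 in polysomes (adjusted p 0.0372 to 0.11) and 2 of 6 in total RNA (0.0217 to 0.106), and fitting all models together gave adjusted p = 0.339 and 0.25. Atp5mc2 had 13.34, 13.32 and 13.34 with rapamycin, against 13.43, 13.51 and 13.59 with DMSO, in hepatectomy polysomes, apart and not called. Atp5mc3 had 13.35, 13.37 and 13.38 with rapamycin, against 13.38, 13.58 and 13.59 with DMSO, there, also not called. Atp5mc1 was not called in the other models; in fetal total RNA it had 11.01, 11.96, 11.74 and 11.60 with rapamycin, against 11.85, 11.94, 11.80 and 11.94 with DMSO, with overlap.

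Cox7c, a small membrane subunit of cytochrome oxidase, had 11.87, 11.96 and 11.75 with rapamycin, against 12.14, 12.19 and 12.24 with DMSO, in hepatectomy total RNA. The groups were apart, by -0.32 (SE 0.08, limma adjusted p = 0.0405), and 2 of 6 fits without 1 array kept the call (0.0356 to 0.162). In hepatectomy polysomes it was at -0.25 (adjusted p = 0.0784).

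**Figure D4:**
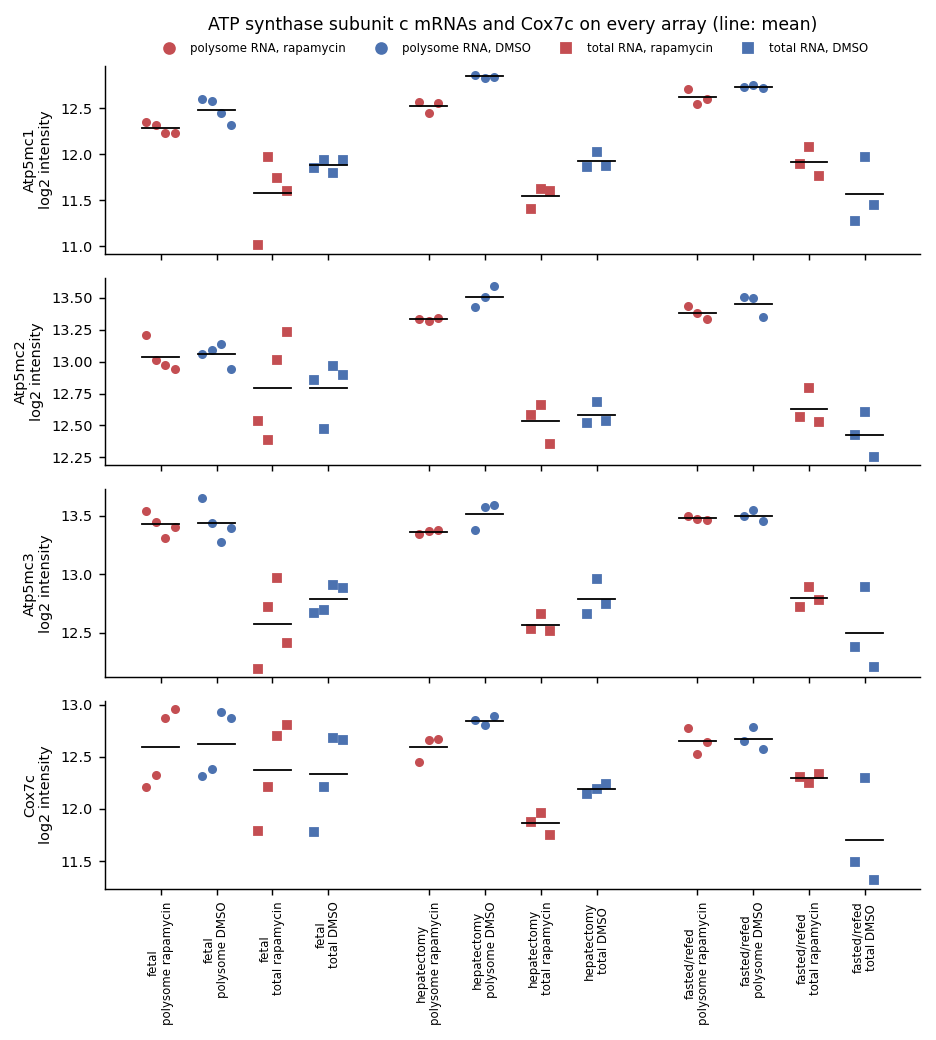
Log2 intensity of the 3 subunit c genes Atp5mc1, Atp5mc2 and Atp5mc3 and of Cox7c on every array (points), with lines at the group means, polysome left of total and rapamycin left of DMSO. In hepatectomy livers the rapamycin values of Atp5mc1 lie below the DMSO values in both fractions, as do those of Cox7c.

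Ribosomal protein mRNAs in the same hepatectomy polysomes give the scale. Of 73 cytosolic ribosomal protein mRNAs 24 were lower with rapamycin, with a median of -0.33 and Rps12 at -0.92. Of 68 mitochondrial ribosomal protein mRNAs 6 were lower in polysomes (median -0.18, Mrps22 at -0.73) and 9 in total RNA (median -0.23). Among the 11 import genes, 1 was lower in polysomes, Tomm40 of the outer membrane pore, at -0.65. No citric acid cycle gene was called in either fraction by limma. Of 7 endothelial markers, Tek, Emcn and Plvap were higher in each fraction, with list medians of 0.62 and 0.60. In polysomes 1 of 8 macrophage markers was higher (Adgre1, 0.67; median 0.34) and 1 of 8 stellate cell markers (Pdgfrb, 0.50; median 0.29). In total RNA the medians of those lists were 0.09 and 0.29 with no call, and 1 of 9 erythroid markers was lower (Tfrc, -0.83). No granulocyte or hepatocyte marker was called in either fraction by limma. The part of these cells in the result was not tested.

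No member was called for rapamycin in fetal or fasted/refed livers by limma, in either fraction, where 0% of all rows were called. In fasted/refed polysomes the median was -0.02 and no member reached an unadjusted p below 0.05; 4.84% of all rows did; the 3 smallest were Cox4i2 (-0.27, below the filter level in that model), Ndufs1 (0.23) and Atp5f1c (-0.19). In fetal polysomes the median was 0.00, with Ndufb6 (-0.27), Ndufs4 (-0.16) and Uqcr11 (-0.14) first, and in fetal total RNA it was -0.07, with Atp5mc1 (-0.30), Cox4i1 (-0.26) and Ndufb8 (-0.25) first. No fit that left out 1 fetal array, the low rapamycin array included, called a member. In fasted/refed total RNA 69 of 73 members were above 0, 44 at an unadjusted p below 0.05, against 16.9% of all rows, with a median of 0.42. Cox7a2l, a factor that helps join complexes III and IV, had 11.58, 11.94 and 11.69 with rapamycin, against 10.71, 11.52 and 10.44 with DMSO, a difference of 0.85 (SE 0.23, adjusted p = 0.237). These groups did not overlap. Ndufa7 and Ndufb8 were at 0.65 each (adjusted p = 0.237 each). Without DMSO livers 1 and 3 the median was -0.01. Without DMSO liver 2 alone, which leaves only the low arrays as the DMSO group, 57 members were called, a description with no share of all rows.

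**Figure D5:**
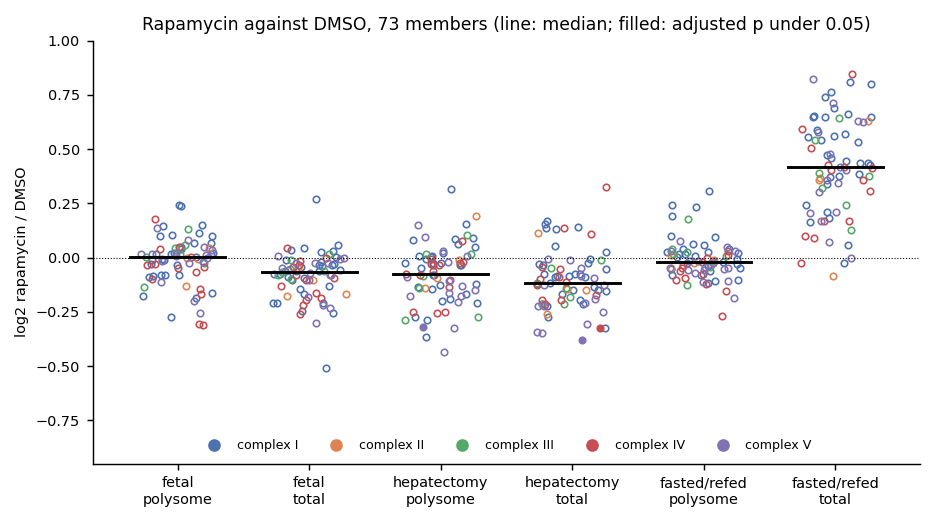
Log2 difference of rapamycin minus DMSO for each tested member, by complex, in the 6 combinations of model and fraction. Filled points passed an adjusted p threshold of 0.05, and black lines mark the median of the members. Only Atp5mc1 and Cox7c in hepatectomy livers are filled, and most points in fasted/refed total RNA lie above 0.

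The rapamycin effect in polysomes was also set against that in total RNA. No member differed in any model by limma, with 0% of all rows called, and 0, 3 and 12 members were at an unadjusted p below 0.05 in fetal, hepatectomy and fasted/refed livers, against 0.414%, 1.45% and 2.45% of all rows. The member medians of this difference were 0.07, 0.06 and -0.44, the last again over the low total arrays. An F-test of whether the rapamycin effect differed among the 3 models called no member in either fraction. It called 0.0368% of all rows in polysomes and 0.424% in total RNA. Members at an unadjusted p below 0.05 numbered 0 and 42, against 5.72% and 15.4% of all rows. The total RNA test includes the low fasted/refed DMSO arrays, without which the fasted/refed rapamycin median was -0.01 in place of 0.42. Leaving out 1 array at a time, that test called 0 to 41 members.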

How the data were processed

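Per the labels, polysome and total RNA was labelled from 100 ng and hybridised to 40 arrays, and the authors deposited RMA-scaled linear intensity values, per the submitters' processing notes. Background correction, probe summaries and scaling were the authors' own, and the number of arrays limits the precision; log2 of the deposited intensity was taken here with no pseudocount. Rows with 1 gene symbol numbered 15209, with several 306, and 13311 were unnamed. Of rows with at least 1 symbol, those whose mean log2 reached the 30th percentile (6.7) were tested, 10860 in all. The check for repeated libraries found no pair of arrays closer than a root mean square difference of 0.233 log2.

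limma 3.58.1 in R 4.3.3 (lmFit and eBayes with a trend) fitted group means, with p-values adjusted over all tested rows by Benjamini-Hochberg at 0.05. Rapamycin, polysome-to-total and their interaction were fitted within the arrays of each model, and comparisons between models and F-tests on all 40 arrays. The fits were tested on simulated data. Labels say only that replicates are biological.

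The members and all gene lists were chosen with earlier results of these data known. The list of cytosolic ribosomal proteins was cleared of 6 S6 kinase genes that its symbol pattern caught. Named genes were a fixed set of isoforms and core subunits, up to 8 members past the threshold in each direction, the highest and lowest of each complex, the 3 smallest p-values where none passed, and up to 3 genes of each list; other genes named were chosen after their values were seen. Polysome and total samples of the same treatment and number were taken to come from the same liver: the labels give both fractions of an arm the same numbers but do not state this, and the deviations of such pairs from the group means correlated at 0.33 to 0.82. Rapamycin and DMSO samples with the same number correlated at 0.43 to 0.75 in fetal livers. The range was -0.07 to 0.28 in hepatectomy livers and -0.62 to 0.39 in fasted/refed livers. The main fits nevertheless paired neither the treatments nor the fractions and treated all arrays as independent. Pairing entered only in the fits described as having a block. The hepatectomy polysome DMSO samples carry a time-point label of refeeding, and their titles were used. Scan dates and slides were not used.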

Additional observations from a re-analysis of the deposited data

Results flagged for a closer look

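Cox4i2, the second isoform of cytochrome oxidase subunit IV, stood out within 1 group. In fetal polysomes with rapamycin 1 liver measured 9.63, against 7.70, 7.76 and 7.85 in the other 3. The gene passed the filter only through its fetal arrays. The gap was 0.925 of the range, above Dixon's critical value for 4 samples. It was the only such value among 76 checks of values within groups of 4, and chance flags about 1 in 20 groups. The fetal DMSO polysome arrays of this gene had 7.73, 7.99, 8.59 and 9.88, so the same liver number was highest there too.

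The polysome-to-total difference was lower in fetal than in fasted/refed livers in 24 members by the interaction test. The largest were Atp5mk (-1.26), Ndufs8 (-1.15), Cox7a2l (-1.07), Ndufs5 (-1.06), Cox7a2 (-1.06), Ndufc2 (-1.01), Ndufb11 (-1.0) and Ndufa2 (-0.96). Without fasted/refed DMSO livers 1 and 3 limma called none of them, at a median of -0.15. The same test against hepatectomy livers gave 5 members, Ndufa2 (-0.83), Ndufc2 (-0.72), Atp5mc2 (-0.67), Ndufs4 (-0.67) and Cox6c (-0.40).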

How the results depend on the processing

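Leaving out 1 array at a time gave counts of called members of 18 to 23, 60 to 62 and 53 to 66 for polysome against total in fetal, hepatectomy and fasted/refed livers. The counts were 4 to 9 for fetal against hepatectomy, 19 to 58 for fetal against fasted/refed and 2 to 40 for hepatectomy against fasted/refed levels. Loading gave 1 to 5, 11 to 45 and 0 for the same pairs. Rapamycin gave 0 to 6 and 0 to 4 in hepatectomy polysome and total RNA, 0 to 57 in fasted/refed total RNA, and 0 in fasted/refed polysomes and both fetal fractions. Its interactions gave 0, and the F-tests 0 in polysomes and 0 to 41 in total RNA. No share of all rows is given for fits with 1 array left out, a block, or other scaling, filter or arrays. Their counts, here and above, are descriptions. With the replicate block, hepatectomy rapamycin counts were 4 (polysome) and 6 (total), the total F-test 6, and loading 45 and 20; the numbers do not pair hepatectomy or fasted/refed treatments, and the block changed no other count by over 1.5 times. Cyclic loess gave 17 for fetal against hepatectomy levels, 13 for fetal against fasted/refed loading and 1 for hepatectomy total rapamycin, which was also 1 with no filter. Fitted on all 40 arrays, rapamycin counts were 11 (fasted/refed total), 0 and 0 (hepatectomy polysome and total). Fitted on the groups compared alone, fetal and hepatectomy against fasted/refed levels gave 14 and 0, and fetal against fasted/refed loading 1. Centring arrays on their medians moved the polysome-to-total median of all rows to 0.22 in fasted/refed livers, with 64 members higher.

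Settings chosen after seeing the data were the removal of fasted/refed total DMSO livers 1 and 3 and the use of rapamycin livers. With 1 DMSO total array left in fasted/refed livers, the counts of called members after the removal are descriptions. A call lost there does not show that the difference was absent. The removal gave 25 for polysome against total, 3 and 0 for fetal and hepatectomy levels against fasted/refed, and 0 for fetal loading; Ndufb4 (-0.063) and Atp5po (-0.0351) turned sign in hepatectomy livers. Rapamycin livers gave 20, 11 and 2 for the same comparisons, 1 for fetal loading and 16 for fetal against hepatectomy levels. There Ndufb4 (-0.13), Atp5po (-0.47), Ndufs5 (-0.17), Atp5f1e (-0.014) and Ndufb8 (-0.41) turned sign in hepatectomy against fasted/refed, Atp5po (-0.22) and Atp5mk (-0.0225) in fetal against fasted/refed, and Cox7a2l (0.0468) in fetal loading. Of the named-gene values under all settings 1229 kept their direction and side of the threshold, 168 lost the call, 5 gained it and 10 turned. The cause was not tested. Slide, scan date and background correction could not be varied from the deposited table.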

Other observations

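In fetal livers the complex II medians separated livers 1 and 2 from livers 3 and 4 of both treatments. In total RNA livers 1 and 2 had 11.09 to 11.60 and livers 3 and 4 had 11.92 to 12.06, and in polysomes the same livers had 11.77 to 11.91 and 12.29 to 12.43. The summed erythroid intensity was 71100 to 80095 in livers 1 and 2 and 48607 to 57458 in livers 3 and 4.

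Members with lower polysome than total values in fetal livers that did not pass the test included Uqcrb (-0.42), Ndufc2 (-0.41) and Ndufb6 (-0.27). The mRNAs of electron carriers and subunits outside the symbol rule were higher in polysomes in 0, 8 and 9 of 12 cases in fetal, hepatectomy and fasted/refed livers, with medians of 0.22, 0.41 and 0.65; without fasted/refed total DMSO livers 1 and 3 the last was 0.25 with 0 called by limma. Polrmt, the mitochondrial RNA polymerase, was lower in polysomes of both adult models, at -0.43 in hepatectomy and -0.44 in fasted/refed livers, the last -0.39 and not called without those arrays.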
